A study of Mus musculus with 9 samples.

Results

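The genes described here are the V-ATPase, lysosome and autophagy genes of mouse AKP tumour organoids, followed as Apc was restored. They were taken by symbol: the subunits of the V-ATPase (Atp6v0 and Atp6v1), the cathepsins (Cts), the autophagy genes named Atg, Lamp1 and Lamp2, the factors Tfeb, Tfe3 and Mitf, Sqstm1, the Map1lc3 and Gabarap genes, Becn1, Ulk1 and Rb1cc1. The rule found 73 of the 21253 genes in the table, and 59 of the 73 had enough counts to be tested. RNA was sequenced from 9 samples in 3 groups of 3. Doxycycline drives a hairpin RNA against Apc in these organoids, so its presence keeps the gene silenced. Control samples kept doxycycline. From the remaining samples it was withdrawn for 2 or 7 days before collection, which restores Apc. All groups come from the same AKP organoids. The labels spell out no allele other than the silenced Apc, and they do not say how many clones or animals the culture came from.

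As background, lysosomes are acidic organelles in which hydrolases break down proteins, lipids and sugars. The V-ATPase acidifies them: its membrane sector V0 carries the proton channel, and its cytosolic sector V1 hydrolyses ATP and turns the rotor. Autophagy delivers cytoplasm to lysosomes inside vesicles whose membrane grows by lipid transfer and is marked by Atg8 proteins (LC3 and GABARAP) joined to a lipid. TFEB, TFE3 and MITF are transcription factors that bind the CLEAR element in the promoters of many lysosome and autophagy genes. Absorptive cells of the gut epithelium take up material from the lumen into endosomes and lysosomes.

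Totals ran from 24143589 to 32277040 counts per sample. Levels are CPM, counts scaled to a common library total corrected by TMM factors, and adjusted p-values come from edgeR's quasi-likelihood test with Benjamini-Hochberg adjustment over all 12535 genes tested. A gene was called higher or lower at an adjusted p under 0.05. Apc itself stood at 6.8, 6.83 and 8.84 CPM in controls, 31.8, 38.1 and 24.8 CPM after 2 days and 67.9, 69.9 and 92.9 CPM after 7 days. Since the replicates are labelled as technical, the p-values cover no more than the spread among these samples. Both times share the same controls, and doxycycline withdrawal, Apc restoration and time in culture cannot be told apart. In bulk RNA, fewer cells of a type and less RNA per cell cannot be told apart either. Of 8 epithelial markers 7 were tested, and the 8 summed to 9383 to 12403 CPM in controls and 26066 to 35606 CPM at 7 days. Fibroblast markers summed to at most 1.16 CPM in any sample. Endothelial markers summed to 14.9 to 17.4 CPM in controls, 6.13 to 7.53 CPM after 2 days and 2.77 to 3.08 CPM after 7 days. Most of that sum was 1 gene, Esam, with means of 15.2, 5.28 and 1.73 CPM, and Emcn had 0 counts. Of the 6 endothelial markers 2 were tested. The other one did not fall: its log2 fold change was 0.56 at 7 days, called higher, though most alternatives lost that call.

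At 2 days few of these genes had moved. Of the 59 tested genes, 8 were higher and 7 were lower than in controls, and 44 were not called. That is 25.4% called, against 23.7% of all tested genes. The 2-day samples did not overlap the controls in 25 of the 59 (42.4%), against 39.3% of all genes. By direction, 13.6% of them were higher and 11.9% lower, against 13.1% and 10.6% of all genes. Their median log2 fold change was 0.08. Of the 15 calls, 9 were lost under at least 1 alternative. Without control replicate 2 there were 2 higher and 4 lower, and without 2-day replicate 1 there were 4 higher. The count of higher genes was 5 without 2-day replicate 3 and also 5 without control replicate 1.

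By 7 days the set had moved mostly upwards. Against controls 46 of the 59 were higher, 9 were lower and 4 were not called (Tfeb, Atp6v1c1, Atp6v1g2 and Atg2b). The share called was 93.2%, where 82.3% of all tested genes were called. The 7-day samples did not overlap the controls in 54 of the 59 (91.5%), against 82.3% of all genes. The direction differed from that of the whole table: 78.0% of these genes and 40.5% of all genes were higher, while 15.3% and 41.8% were lower. The median log2 fold change was 0.80 against -0.03 for all genes, but the median size without its sign was close, 0.84 against 0.81. Scaling moves these values. With library size alone the median of all genes shifted to -0.43, and 33 members were higher and 13 lower. With upper-quartile factors that median was -0.13, with 41 higher and 10 lower.

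Between 2 and 7 days 41 genes rose, 7 fell and 11 were not called, which is 81.4% called against 79.1% of all genes. The samples of these groups did not overlap in 47 of the 59 (79.7%), against 79.3% of all genes. By direction, 69.5% were higher and 11.9% lower, against 39.2% and 39.9% of all genes. With library size alone the split was 31 higher and 15 lower, and with DESeq2 size factors or the DESeq2 Wald test 4 were lower. The commonest course, in 33 genes, was no call at 2 days followed by a rise that left the gene above controls at 7 days. In 6 genes each step was upward: Atp6v0a1, Atp6v0a2, Atp6v0e, Ctse, Ctsh and Ctso. Another 4, Atp6v1c2, Atg16l2, Atg9b and Ctsl, fell at each step, and of these Atp6v1c2 entered the test through the controls. Gabarapl1 and Lamp2 were lower at 2 days and higher at 7 days.

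**Figure D1:**
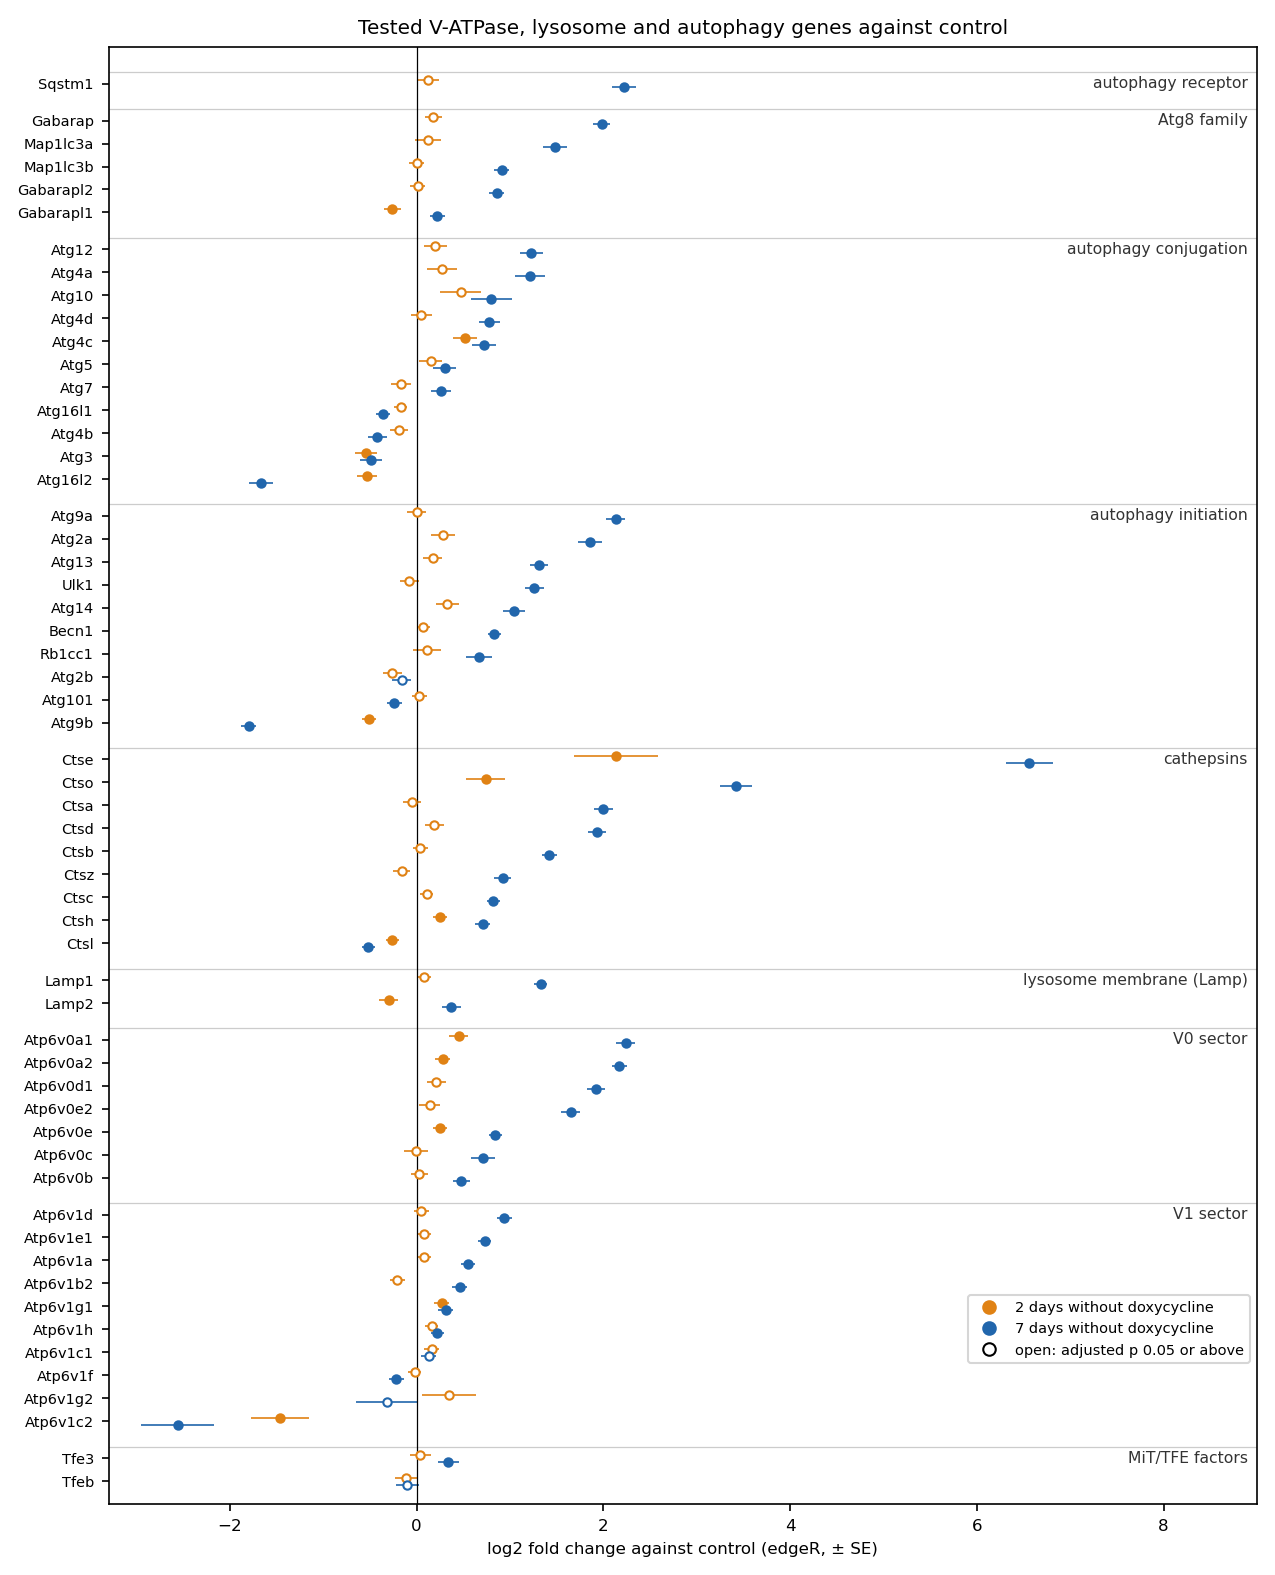
Log2 fold change against control (x axis, edgeR, bars are SE) for 57 of the 59 tested genes, grouped by role, at 2 days (orange) and 7 days (blue). Open points have an adjusted p of 0.05 or above, and Ctsf and Ctss are left out because at least 1 of their groups held 3 counts or fewer. At 2 days most points lie near 0, apart from Ctse at 2.14 and Atp6v1c2 at -1.46, while at 7 days all 7 V0 genes lie to the right of 0 and Atg9b, Atg16l2 and Atp6v1c2 lie furthest to the left.

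The transcription factors that bind CLEAR elements moved little at the level of RNA. Tfeb (chromosome 17, 47737030 to 47792419, GRCm38) stood at 23.5, 21.4 and 18.5 CPM in controls, 20.1, 20 and 18.6 CPM after 2 days and 23.2, 19.6 and 16.3 CPM after 7 days. These ranges overlap, and Tfeb was not called at 2 days (log2 fold change -0.11, adjusted p = 0.55) or at 7 days (-0.10, adjusted p = 0.43). With library size alone, where the median of all genes was -0.43, Tfeb read -0.51 at 7 days (adjusted p = 0.00053). Tfe3, which can stand in for Tfeb at many targets, read 34.1, 35.2 and 30.9 CPM in controls, 32.2, 37.4 and 33.6 CPM after 2 days and 50, 41.9 and 35.2 CPM after 7 days. Replicate 3 at 7 days lay at the top of the control range, and the other 7-day samples lay above it. Tfe3 was called higher at 7 days (log2 fold change 0.34 ± 0.11 SE, adjusted p = 0.012). That call was lost without 7-day replicate 1 and with upper-quartile factors, and with library size alone the value was -0.07. Mitf, the factor of pigment and bone-resorbing cells, had 6, 5 and 1 counts in the 3 groups and was not tested. These values are of RNA. The nuclear entry of the proteins, which is how TFEB and TFE3 are mainly controlled, was not measured.

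Promoter sequence shows which of these genes carry the letters that such factors are known to bind. RefSeq windows from 250 bases before to 50 bases after a gene's start (GRCm38.p6) were at hand for 58 of the 73 genes. The full CLEAR element, searched as the core TCACGTGA with a G before and a C after it, was in the windows of 0 of the 58 and of 0.37% of all 27025 genes with a window. The core alone, which lies inside the element and reads the same on both strands, was in 6 of the 58 (10.3%) and in 1.12% of all genes. The 6 are shown here, 1 run for each gene. Capitals mark the core, and each run reads 5′ to 3′ along the gene's strand.
Atg3, chr16:45158737-45158784, plus strand: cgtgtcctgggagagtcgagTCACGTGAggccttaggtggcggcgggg
Atp6v0d1, chr8:105566041-105566088, minus strand: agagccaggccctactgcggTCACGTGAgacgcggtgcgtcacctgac
Atp6v0e, chr17:26676378-26676425, plus strand: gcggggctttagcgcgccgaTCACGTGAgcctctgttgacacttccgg
Atp6v1a, chr16:44139364-44139411, minus strand: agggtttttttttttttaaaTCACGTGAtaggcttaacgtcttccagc
Ctsa, chr2:164833740-164833787, plus strand: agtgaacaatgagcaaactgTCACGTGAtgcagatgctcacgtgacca
Ctsd, chr7:142387899-142387946, minus strand: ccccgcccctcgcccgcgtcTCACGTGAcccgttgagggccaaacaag
The core began 72 bases before the start in Atg3, 132 before in Atp6v1a, 99 before in Ctsd, 13 before in Ctsa and 4 before in Atp6v0d1. In Atp6v0e it lay 2 bases after the start, and Ctsa held a further copy, in lower case in its run. A match describes letters only and is not a measured binding site. At 7 days Ctsa (log2 fold change 2.00), Ctsd (1.93), Atp6v0d1 (1.92), Atp6v0e (0.84) and Atp6v1a (0.55) were higher than in controls, and Atg3 (-0.49) was lower.

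In the V0 sector all 7 tested subunits rose by 7 days, and in the V1 sector the response was smaller and mixed. The median log2 fold change at 7 days was 1.65 over V0 and 0.27 over the 10 tested V1 genes, of which 6 rose and 2 fell. That is 100% higher in V0, and in V1 60% higher and 20% lower. Of all genes 40.5% were higher and 41.8% lower. With library size alone 6 V0 genes were called higher, and V1 gave 2 higher and 4 lower. Measured from the median of all genes, V0 stood at 1.68 and V1 at 0.30, and under library size, DESeq2 or upper-quartile scaling these were 1.67 to 1.68 and 0.29 to 0.30. Scaling shifts all genes by nearly the same amount, so these distances could hardly move and are no test of the contrast. They were 1.55 and 0.43 with the GC trend removed, and 1.71 and 0.44 over genes with a mean of at least 5 CPM. The difference between the sectors was not tested. At 2 days 3 V0 genes (42.9%) and 1 V1 gene (10%) were higher, and 1 V1 gene (10%) was lower. Of all genes 13.1% were higher and 10.6% lower at that time. Without control replicate 2 or without 2-day replicate 1, 1 V0 gene was higher at 2 days.

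Atp6v0a1 (chromosome 11, 101009452 to 101063719) encodes an isoform of the large V0 subunit a, which forms part of the proton path and helps to set the organelle where the pump resides. It read 44.1, 41.5 and 37.1 CPM in controls, 56.3, 59.9 and 51.2 CPM after 2 days and 216, 190 and 172 CPM after 7 days. The 3 groups did not overlap, and the fold was 1.36 at 2 days (log2 0.45 ± 0.10 SE, adjusted p = 0.0037) and 4.72 at 7 days (log2 2.24 ± 0.10 SE, adjusted p = 1.6e-11). Atp6v0a2, the isoform linked to the Golgi and endosomes, read 92.1, 90.4 and 86.8 CPM in controls, 108, 118 and 100 CPM after 2 days and 426, 402 and 384 CPM after 7 days. Again no groups overlapped, and the 7-day rise was 4.5-fold (adjusted p = 2.6e-12). Its 2-day call (log2 0.28, adjusted p = 0.021) was lost without 2-day replicate 1 or 2 or control replicate 2 or 3, with adjusted p from 0.059 to 0.077.

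Atp6v0d1, which couples the rotor ring to the central stalk, read 35.6, 34.0 and 28.9 CPM in controls, 40.5, 37.5 and 36.2 CPM after 2 days and 140, 123 and 109 CPM after 7 days. Its 2-day samples lay above the controls but it was not called (adjusted p = 0.15), and at 7 days it rose by 1.92 ± 0.10 (SE) on the log2 scale. Atp6v0e2, a small membrane subunit, rose by 1.65 at 7 days (adjusted p = 8.8e-10) from 6.21 to 7.32 CPM in controls to 19.8 to 23.4 CPM. Its commoner paralog Atp6v0e read 67.4 to 72.3 CPM in controls, 78.3 to 87.8 CPM after 2 days and 120 to 129 CPM after 7 days. Atp6v0e was called higher at 2 days (log2 0.25, adjusted p = 0.023) and at 7 days (0.84). Its 2-day call was lost when control replicate 1 or 2 or 2-day replicate 1 or 3 was left out (adjusted p from 0.054 to 0.13).

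The proteolipids that form the rotor ring changed least within V0. Atp6v0c, the main ring subunit, read 297, 277 and 224 CPM in controls and 513, 440 and 352 CPM at 7 days, a log2 change of 0.71 ± 0.13 (SE, adjusted p = 0.00012). The 7-day samples all lay above the controls, with replicate 3 lowest in each of the 3 groups. Atp6v0b, the second ring subunit, rose by 0.48 (adjusted p = 9.9e-05), and with library size alone its adjusted p was 0.36. The other V0 isoforms, Atp6v0a4 of kidney and Atp6v0d2 of bone-resorbing cells, did not pass the filter, and Atp6v0d2 had 0 counts in every sample.

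In V1, the subunits of the ATP-splitting head rose moderately. Atp6v1a, the catalytic subunit, read 131, 139 and 141 CPM in controls, 141, 150 and 144 CPM after 2 days and 203, 194 and 205 CPM after 7 days. The 7-day samples stood above both other groups, and the rise was 0.55 ± 0.07 on the log2 scale (SE, adjusted p = 3e-06, and 0.072 with library size alone). Atp6v1b2, the nucleotide-binding partner in the head, read 212, 209 and 185 CPM in controls, 180, 171 and 172 CPM after 2 days and 291, 291 and 250 CPM after 7 days. It was called at 7 days (log2 0.46, adjusted p = 0.00013) and not at 2 days (-0.21, adjusted p = 0.082), and with library size alone the 7-day adjusted p was 0.45. Among the stalk subunits, Atp6v1d rose by 0.94 and Atp6v1e1 by 0.73.

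Other V1 genes stayed flat or fell. Atp6v1c1, which steadies the stator and leaves the complex when V1 detaches, read 54.0 to 58.6 CPM in controls and 58.9 to 62.8 CPM at 7 days and was not called (log2 0.13, adjusted p = 0.13, against -0.27 and 0.011 with library size alone). Its paralog Atp6v1c2 was rare and fell at each step: 0.734, 1.06 and 0.994 CPM in controls, 0.245, 0.277 and 0.491 CPM after 2 days and 0.0865, 0.113 and 0.257 CPM after 7 days. Atp6v1c2 passed the filter through the controls, where it was highest, and not with only the 2-day and 7-day samples. A high control level was thus a condition of its being tested. Its 2-day samples lay wholly below the controls (log2 -1.46 ± 0.31 SE, adjusted p = 0.0029), and the 7-day samples did so too (-2.56 ± 0.39 SE, adjusted p = 2e-05). The further fall between 2 and 7 days (adjusted p = 0.045) was lost under 8 alternatives, among them leaving out replicate 2 or 3 of the controls, of the 2-day group replicate 2 or 3, or at 7 days replicate 1 or 2, with adjusted p from 0.051 to 0.22. Atp6v1f, of the central stalk, read 89.2 to 92.1 CPM in controls and 76.3 to 79.5 CPM at 7 days (log2 -0.22, adjusted p = 0.014), and its adjusted p was 0.058 without 7-day replicate 2.

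Atp6v1g1, a peripheral stalk subunit, read 78.9, 76.8 and 82.0 CPM in controls, 92.0, 87.8 and 107 CPM after 2 days and 97.5, 103 and 94.6 CPM after 7 days. Both later groups lay above the controls and overlapped each other, with calls at 2 days (log2 0.27, adjusted p = 0.027) and 7 days (0.31, adjusted p = 0.0029). Leaving out control replicate 1 or 2 or 2-day replicate 3, the 2-day adjusted p ran from 0.07 to 0.13, and with library size alone the 7-day value was -0.09. Atp6v1h, the regulatory subunit, rose by 0.22 at 7 days (adjusted p = 0.0088), but with library size alone it read -0.18, and with upper-quartile factors its adjusted p was 0.12. The kidney and testis isoforms Atp6v1b1, Atp6v1e2 and Atp6v1g3 did not pass the filter. Atp6v1fnb, which the symbol rule takes without its being a known subunit, had 0 counts in every sample.

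**Figure D2:**
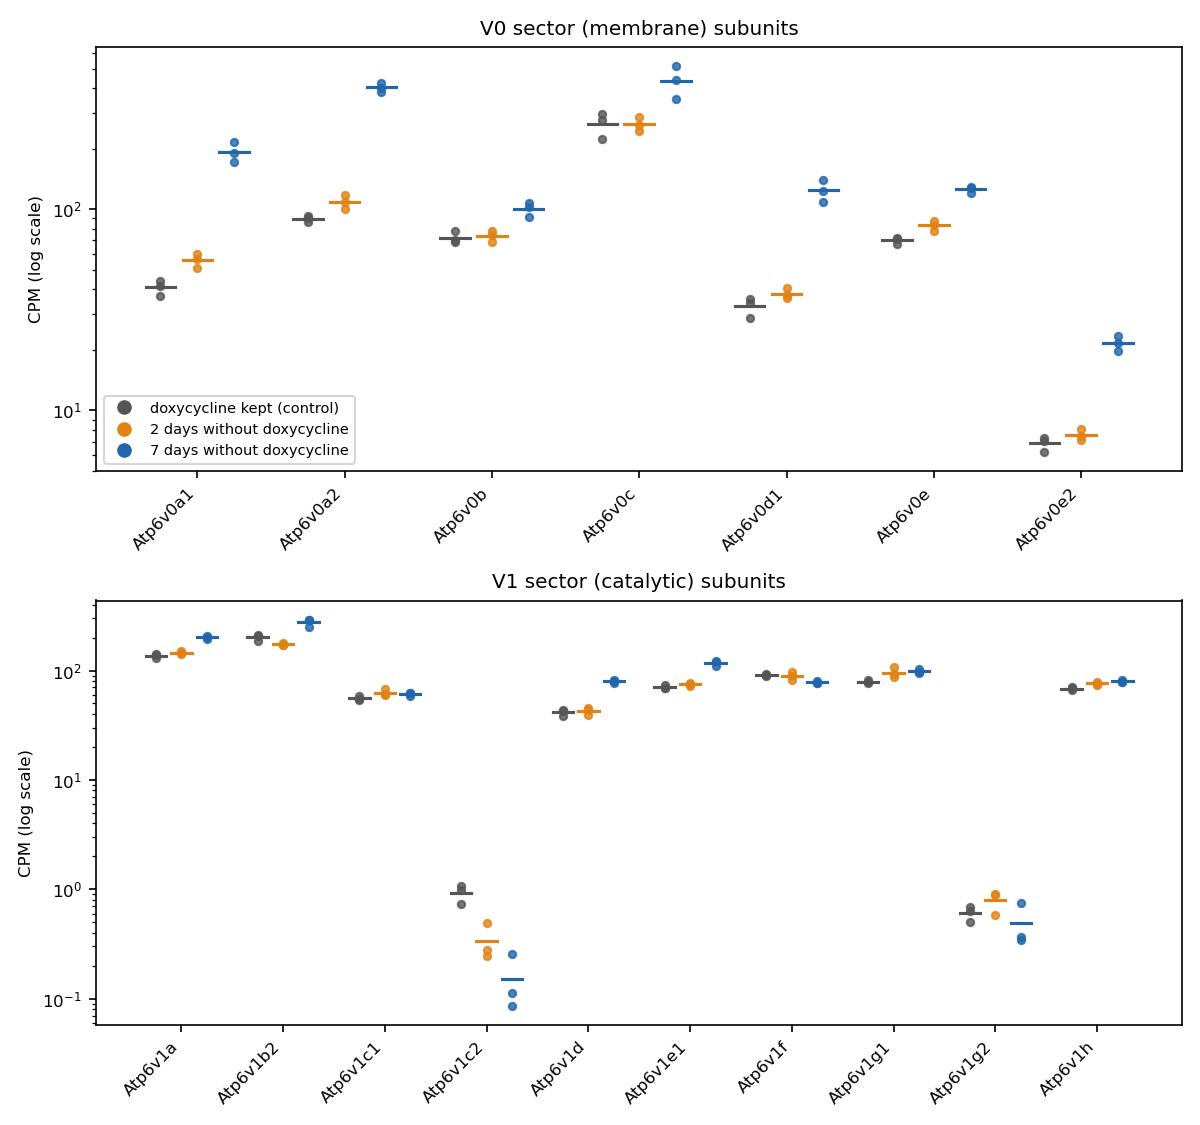
Level of each tested V0 (upper panel) and V1 (lower panel) subunit in CPM on a log axis, 1 point per sample, with a line at the mean of the 3 samples. Atp6v0a1, Atp6v0a2 and Atp6v0d1 show the widest gap between the 7-day samples and the others, while Atp6v1c1 stays between 54 and 67.1 CPM and Atp6v1c2 falls from about 0.93 to 0.152 CPM.

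Genes that help to assemble or hold the pump were read from a separate list of 12 tested genes, of which 8 were higher and 4 lower at 7 days (4 and 4 with library size alone). These are 66.7% and 33.3%, against 40.5% and 41.8% of all genes. Their median log2 fold change was 0.47. Tldc2, of a family of proteins that bind the V-ATPase, went from 0.208 CPM in controls to 1.36 CPM at 2 days and 33.1 CPM at 7 days (log2 7.32 ± 0.18 SE). Its control level was below the filter, so it entered the test through later samples, and a rise was a condition of its being tested. Wdr7 and Rogdi, of the complex that rejoins V1 to V0, rose by 1.71 and 1.15. Dmxl2, of the same complex, was lower (-1.73), as were the V0 assembly factors Ccdc115 (-1.22) and Tmem199 (-0.80). Tcirg1, an isoform of subunit a with a symbol of its own, rose by 0.73.

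Of the lysosome's membrane glycoproteins, Lamp1 rose strongly and Lamp2 moved in both directions. Lamp1 (chromosome 8, 13159161 to 13175338) read 234, 246 and 251 CPM in controls, 252, 262 and 259 CPM after 2 days and 615, 608 and 610 CPM after 7 days. The 2-day samples stood just above the controls without a call (adjusted p = 0.46), and the 7-day samples were 2.51-fold higher (log2 1.33 ± 0.07 SE, adjusted p = 1.4e-10). Lamp2, whose isoform A takes up proteins in chaperone-mediated autophagy, read 76.5, 83.5 and 97.6 CPM in controls, 70.7, 65.9 and 71.9 CPM after 2 days and 107, 102 and 123 CPM after 7 days. All 2-day samples were below and all 7-day samples above the control range. The 2-day fall (log2 -0.30 ± 0.10 SE, adjusted p = 0.032) was lost with library size alone, with upper-quartile factors, when any 2-day sample was left out and without control replicate 2 or 3, with adjusted p from 0.052 to 0.13. The 7-day rise was 0.37 (adjusted p = 0.0026), with -0.03 under library size alone. Per kilobase of exon, Lamp1 stood at 91.0 CPM and Lamp2 at 8.99 CPM in controls, and at 228 and 11.6 CPM at 7 days.

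Among 29 further lysosomal membrane genes that were tested, 21 were higher and 4 lower at 7 days (16 and 7 with library size alone), with a median of 0.67. These are 72.4% and 13.8%, against 40.5% and 41.8% of all genes. Ctns, which exports cystine from the lysosome, rose by 2.13 and Tmem106b by 1.76. Lamp3 fell by 1.86 on the log2 scale, and Ostm1, partner of the chloride-proton exchanger Clcn7, fell by 1.04. At 2 days Slc29a3, a nucleoside carrier, was lower by log2 -1.06.

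Cathepsins are the lysosome's proteases. Of 18 cathepsin genes, 11 had enough counts to be tested, and at 7 days 10 were higher and 1, Ctsl, was lower. That is 90.9% higher, against 40.5% of all genes. Their median log2 fold change was 1.93, which includes rare genes that entered the test through later samples, and it was 0.94 over the 7 with a mean of at least 5 CPM, of which 6 were higher. At 2 days 3 (27.3%) were higher (Ctse, Ctsh and Ctso) and 1 (9.09%) was lower (Ctsl), against 13.1% and 10.6% of all genes. Without control replicate 2 or without 2-day replicate 1, 1 cathepsin, Ctse, was higher at 2 days.

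Several abundant cathepsins rose without a call at 2 days. Ctsd, the main aspartic protease of lysosomes, read 133, 124 and 106 CPM in controls, 149, 134 and 129 CPM after 2 days and 509, 464 and 408 CPM after 7 days (log2 1.93 ± 0.10 SE, adjusted p = 1.4e-10). Ctsa, a carboxypeptidase that also shields other hydrolases, read 57.5, 56.2 and 47.7 CPM in controls, 52.7, 51.7 and 51.1 CPM after 2 days and 245, 209 and 193 CPM after 7 days (log2 2.00 ± 0.10 SE). Ctsb, a cysteine protease, read 215, 211 and 199 CPM in controls, 217, 214 and 213 CPM after 2 days and 610, 549 and 511 CPM after 7 days (log2 1.42). In each of these the 7-day samples lay far above the other 6, which overlapped between controls and 2 days. Smaller rises were seen for Ctsz (0.92), Ctsc (0.82), which activates other proteases, and Ctsh (0.71). Per kilobase of exon Ctsz had the highest level of all members in controls (124 CPM) and at 7 days (235 CPM). Fdft1, on the opposite strand, shares 12.79% of the exon bases of Ctsb, and over all samples it had 95202 counts and Ctsb 81434. The model Gm49369, on the same strand, shares 34.37% of the exon bases of Ctsd. To which gene a read from such shared bases belongs cannot be told here.

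Ctsh and Ctsl moved at 2 days in opposite directions. Ctsh, an aminopeptidase, read 299, 276 and 265 CPM in controls, 330, 324 and 345 CPM after 2 days and 468, 455 and 447 CPM after 7 days. The groups did not overlap, but the 2-day call (log2 0.25, adjusted p = 0.026) was lost without 2-day replicate 1 or 3 or control replicate 2 or 3 (adjusted p from 0.073 to 0.12). Ctsl, a broad endopeptidase, read 178, 177 and 178 CPM in controls, 153, 140 and 153 CPM after 2 days and 129, 125 and 119 CPM after 7 days. Its samples were lower at each step without overlap, by -0.26 at 2 days (adjusted p = 0.015) and -0.52 ± 0.07 (SE) at 7 days (adjusted p = 7.1e-06). Its 2-day adjusted p was 0.053 to 0.062 without control replicate 1 or 2, and the step from 2 to 7 days (adjusted p = 0.0039) had an adjusted p of 0.19 with the GC trend removed. The model Gm47123 shares 26.85% of the exon bases of Ctsl.

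Ctse and Ctso were rare in controls. With 7 counts or fewer over the controls, Ctse, Ctsf and Ctss entered the test through later samples, so a rise was a condition of their being tested. Ctse (chromosome 1, 131638306 to 131675505), an aspartic protease of stomach and gut epithelium, read 0.0772, 0.0861 and 0.071 CPM in controls, 0.337, 0.346 and 0.399 CPM after 2 days and 9.09, 7.74 and 6.71 CPM after 7 days. The control values rest on 7 counts in all. The groups stood wholly apart, at a log2 change of 2.14 ± 0.45 (SE) at 2 days (adjusted p = 0.0026) and 6.56 ± 0.25 (SE) at 7 days. Ctso, a cysteine protease, read 0.734, 0.717 and 0.817 CPM in controls, 1.47, 1.04 and 1.26 CPM after 2 days and 7.27, 8.64 and 8.36 CPM after 7 days, a 10.7-fold rise. Its 2-day call (log2 0.74, adjusted p = 0.018) was lost when control replicate 1 or 2 or 2-day replicate 1 was left out (adjusted p from 0.051 to 0.088).

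Ctsf and Ctss were close to absent until 7 days. Ctsf, a cysteine protease, had 0 counts over the 3 controls, 3 over the 2-day samples and 74 over the 7-day samples. Set against the limit of 3 counts over a group, the 7-day level was at least 28.5-fold higher than in controls. Against the 2-day samples the ratio was 30.1, with a 95% exact counting interval of 9.92 to 150. Ctss, which trims antigens in macrophages and dendritic cells and is also made by some epithelia, had 3, 3 and 240 counts by group, and the 7-day samples read 4.33, 2.85 and 2.35 CPM. Its ratio to controls was 92.3 (interval 31.2 to 451), for counting error only.

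Macrophage markers are given beside Ctss because that gene is abundant in those cells. The 12 markers summed to 11.7 to 13.5 CPM in controls, 40.5 to 41.0 CPM after 2 days and 60.5 to 62.4 CPM after 7 days, and 3 of the 12 were tested. All 3 tested markers were higher at 7 days (100%, against 40.5% of all genes), by 1.21 to 5.15 on the log2 scale. Mrc1 and Cd14 made up most of the sum, and C1qa, C1qb and C1qc had 0 counts in every sample. The remaining tested marker was not called at 2 days (log2 -0.07) and read 5.15 at 7 days. Next to Mrc1 and Cd14 it added little to the sums of controls and 2-day samples, so it entered the test through the 7-day samples. A rise was a condition of its being tested, and the 100% above includes it. The part of such cells in the Ctss values was not tested. Of the other cathepsins, Ctsk had 1, 8 and 9 counts by group and Ctsw 7, 3 and 3, and Ctsg, Ctsj, Ctsm, Ctsq and Ctsr also did not pass the filter.

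**Figure D3:**
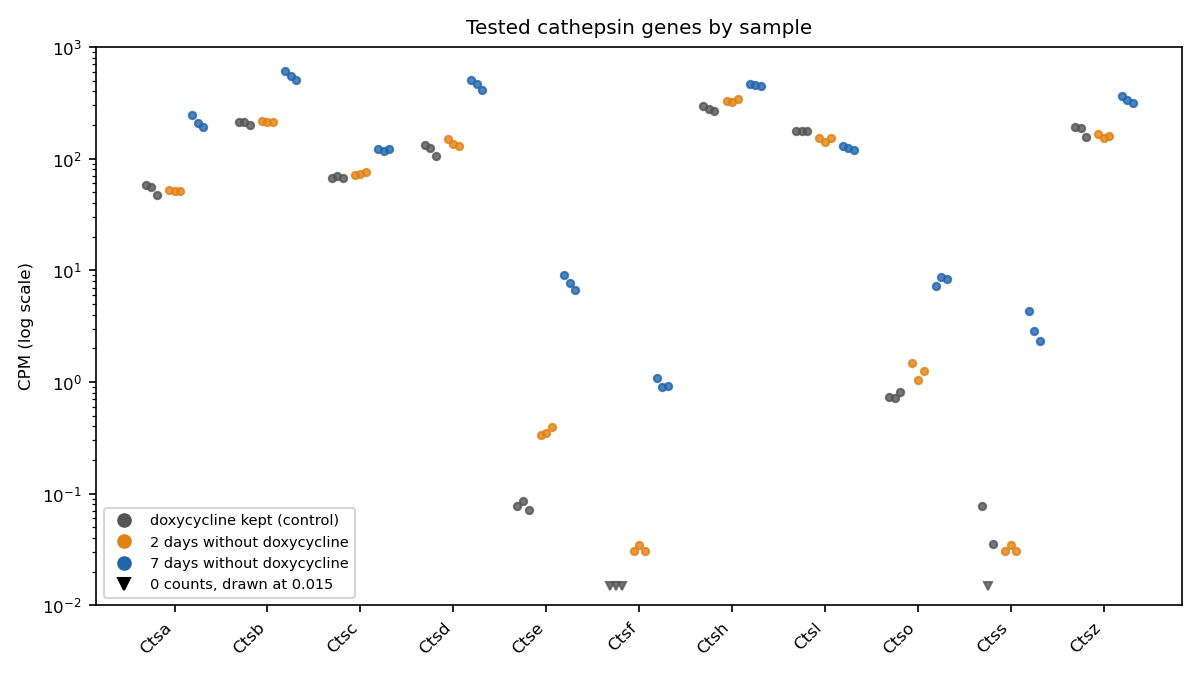
Level of each of the 11 tested cathepsins in CPM on a log axis, 1 point per sample, with triangles for samples at 0 counts drawn at 0.015. The 7-day samples lie above the other groups for every gene but Ctsl, and Ctse, Ctsf, Ctso and Ctss span the widest range.

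Of 7 tested genes for protein inhibitors of cathepsins and related proteases 6 were higher at 7 days, with a median of 1.24. That is 85.7%, against 40.5% of all genes. At 2 days 3 were higher, 42.9% against 13.1% of all genes, but the 2-day call of Cst3 was lost when 2-day replicate 1 or 3 or control replicate 2 or 3 was left out (adjusted p from 0.061 to 0.11). Serpinb1a, an inhibitor of leukocyte serine proteases, went from 159 CPM in controls to 377 CPM at 2 days and 1401 CPM at 7 days. Cst6 rose by 2.89 and Cst3, cystatin C, by 1.46.

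Of 41 tested acid hydrolase genes other than cathepsins 33 were higher and 4 lower at 7 days (median 0.93), or 26 and 8 with library size alone. These are 80.5% and 9.76%, against 40.5% and 41.8% of all genes. Lipa, the acid lipase that splits cholesteryl esters, went from 21.7 to 31.7 and 169 CPM and was called at both times (log2 0.55 and 2.96). Acp5, an acid phosphatase, and Man2b2, a mannosidase, each rose by 2.80 at 7 days. Pla2g15, a lysosomal phospholipase, was lower by log2 -1.11. At 2 days 3 of the list were higher and 3 were lower, 7.32% each, against 13.1% and 10.6% of all genes. Among the lower was Gm2a (-0.75), the activator of ganglioside breakdown.

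Of 17 tested genes of the machinery that sends hydrolases to lysosomes, 10 were higher and 6 lower at 7 days (median 0.28), or 4 and 8 with library size alone. These are 58.8% and 35.3%, against 40.5% and 41.8% of all genes. Sort1, a sorting receptor, rose by 0.96. Gga2, an adaptor at the Golgi, was lower at 2 days (-0.95) and at 7 days (-1.64). Gnptab, which makes the mannose 6-phosphate tag, was lower by -0.55, and the receptor M6pr by -0.39.

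Genes of the lysosomal mTORC1 pathway, which holds Tfeb and Ulk1 in check when nutrients are plentiful, gave 14 higher and 5 lower of 26 tested at 7 days (median 0.27), or 9 and 11 with library size alone. The share called was 73.1%, against 82.3% of all genes, and 53.8% were higher, against 40.5%. Castor2 (log2 2.78), Sesn1 (1.81) and Sesn2 (1.76) were among the higher, and Depdc5 (-0.70), of the GATOR1 complex, was among the lower. Castor2 was also higher at 2 days (0.75).

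Of the 10 genes that start the autophagosome, 7 were higher and 2 lower at 7 days (6 and 3 with library size alone), with a median of 0.93. These are 70% and 20%, against 40.5% and 41.8% of all genes. At 2 days 1 of the 10, Atg9b, was called, and it was lower (10%, against 10.6% of all genes). There were 2 lower when 2-day replicate 2 was left out, and 1 was higher when control replicate 3 was left out. With no filter, with the replicate block and with the GC trend removed, 2 were higher and 2 lower each time. The DESeq2 Wald test gave 2 lower.

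The ULK1 complex starts the process. Ulk1, its kinase, read 16.9, 16.9 and 14.9 CPM in controls, 14.1, 17.3 and 14.7 CPM after 2 days and 40.6, 37.9 and 38.2 CPM after 7 days (log2 1.26 ± 0.10 SE, adjusted p = 7.1e-09). Control and 2-day samples overlapped, and all 7-day samples were above both. Its partner Atg13 rose by 1.31 (adjusted p = 1.2e-08). The scaffold Rb1cc1 read 14.2, 16.3 and 17.5 CPM in controls and 21.2, 22.5 and 32.5 CPM at 7 days, with replicate 3 well above the others (log2 0.67, adjusted p = 0.00056, and 0.16 with library size alone). Atg101, the remaining subunit, read 48.6 to 54.6 CPM in controls and 43.3 to 44.7 CPM at 7 days and was lower by -0.24 (adjusted p = 0.013), with 0.061 without control replicate 1.

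Of the lipid kinase complex that Ulk1 activates, Becn1 and Atg14 rose. Becn1, its core, read 67.9 to 72.2 CPM in controls and 120 to 127 CPM at 7 days (log2 0.83, adjusted p = 2.3e-08). The model Cntd1 shares 43.93% of the exon bases of Becn1, but it had 20 counts over all samples, against 22633 for Becn1. Atg14, which directs the complex to autophagy, rose by 1.04. Of 15 other tested genes of this complex and its readers 8 were higher (53.3%) and 1 lower at 7 days (median 0.33), or 2 and 7 with library size alone, and 6 were not called. The share called was 60%, against 82.3% of all genes. Zfyve1, a marker of the site where autophagosomes form, rose by 2.48 and Vmp1 by 1.10, and Wdr45b, which binds the lipid made by the kinase, was lower by -0.38.

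The Atg9 pair changed places. Atg9 proteins are lipid scramblases on the vesicles that seed the autophagosome. Atg9a (chromosome 1, 75180860 to 75192196) read 19.3, 17.7 and 17.2 CPM in controls, 17.6, 20.4 and 16.1 CPM after 2 days and 87.1, 76.8 and 72.7 CPM after 7 days. Its control and 2-day samples overlapped, and at 7 days it was 4.37-fold higher (log2 2.13 ± 0.10 SE, adjusted p = 3.3e-11). Atg9b (chromosome 5, 24384181 to 24392143) read 72.0, 69.5 and 68.3 CPM in controls, 45.8, 49.8 and 52.0 CPM after 2 days and 19.8, 20.6 and 19.8 CPM after 7 days. The groups did not overlap, and the fall was -0.51 ± 0.07 (SE) at 2 days (adjusted p = 0.00013) and -1.80 ± 0.08 (SE) at 7 days (adjusted p = 1.2e-11). Neither Atg9b call was lost under any alternative that tested it. The model Gm29253 shares 31.79% of the exon bases of Atg9a, and the opposite-strand gene Nos3 shares 7.45% of those of Atg9b.

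Shares within a family do not depend on how libraries are scaled, so they were computed per kilobase of exon in each sample. Atg9b made up 84.5%, 85.1% and 85.3% of the Atg9 pair in controls, 79.2%, 78.1% and 82.5% at 2 days and 24.9%, 28.2% and 28.4% at 7 days. The groups did not overlap, which in an exact two-sided permutation test of 3 against 3 gives p = 0.1, the smallest it allows. On plain counts the mean share of Atg9b was 79.5% in controls and 20.4% at 7 days.

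The Atg2 lipid transfer proteins feed membrane to the growing vesicle. Atg2a read 43.1, 45.5 and 35.4 CPM in controls, 49.1, 59.5 and 41.9 CPM after 2 days and 171, 146 and 134 CPM after 7 days, a rise of 1.86 ± 0.13 on the log2 scale (SE, adjusted p = 2.9e-09). Atg2b read 70.4 to 73.2 CPM in controls, 50.6 to 69.0 CPM after 2 days and 62.0 to 65.1 CPM after 7 days and was not called at 7 days (log2 -0.16, adjusted p = 0.12, against -0.56 and 0.00015 with library size alone). Atg2b thus made up 49.8% of the pair on average in controls, 40.5% at 2 days and 19.6% at 7 days, without overlap between groups (exact permutation p = 0.1 in each comparison with controls).

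The conjugation genes, which join Atg8 proteins to lipid, gave 7 higher and 4 lower of 11 at 7 days, with a median of 0.30, or 3 and 4 with library size alone. These are 63.6% and 36.4%, against 40.5% and 41.8% of all genes. At 2 days 1 (9.09%) was higher (Atg4c) and 2 (18.2%) were lower (Atg3 and Atg16l2), against 13.1% and 10.6% of all genes.

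Atg12, a ubiquitin-like protein that is joined to Atg5, read 18.2, 20.3 and 25.7 CPM in controls and 47.3, 51.5 and 51.8 CPM at 7 days (log2 1.23, adjusted p = 1.1e-07). Atg5 (0.30, adjusted p = 0.032) and the E1-like enzyme Atg7 (0.26, adjusted p = 0.037) were called at 7 days with ranges that overlapped those of the controls. Atg5 lost its call under 7 alternatives, among them those leaving out control replicate 1 or 2 or 7-day replicate 2 or 3, and Atg7 under 9, among them those leaving out control replicate 2 or 3, 2-day replicate 2 or 7-day replicate 1 or 2. Adjusted p then ran from 0.077 to 0.53 for Atg5 and from 0.051 to 0.18 for Atg7, and with library size alone their values were -0.10 and -0.15. Atg10, the E2-like enzyme of the Atg12 branch, rose by 0.80 at about 1 CPM (adjusted p = 0.0039, and 0.1 with library size alone).

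Atg3, the E2-like enzyme of the Atg8 branch, read 50, 51.9 and 64.4 CPM in controls, 35.4, 34.6 and 44.2 CPM after 2 days and 34.2, 38.9 and 44.9 CPM after 7 days. It fell by 2 days (log2 -0.54 ± 0.12 SE, adjusted p = 0.0048) and stood no further from controls at 7 days (-0.49, adjusted p = 0.0019), and the later step was 0.05 (adjusted p = 0.72). Replicate 3 was highest in each group. The Atg16l scaffolds that place the conjugation site both fell. Atg16l2 read 9.93, 8.78 and 8.59 CPM in controls, 6.37, 6.26 and 6.20 CPM after 2 days and 2.55, 3.27 and 2.71 CPM after 7 days, without overlap (log2 -0.53 at 2 days, adjusted p = 0.0026, and -1.67 ± 0.13 SE at 7 days, adjusted p = 6.9e-09). Atg16l1, the form known for its Crohn's disease variant, read 40.3 to 41.8 CPM in controls and 31.5 to 32.8 CPM at 7 days (log2 -0.36). Atg16l2 went from 20.1% of the pair in controls to 9.13% at 7 days.

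The Atg4 proteases trim Atg8 proteins before conjugation and free them afterwards. Atg4a (log2 1.21), Atg4d (0.78) and Atg4c (0.72, adjusted p = 0.061 with library size alone) were higher at 7 days, and Atg4b (-0.42, adjusted p = 0.0019) was lower. Atg4b read 64.3, 57.0 and 50.1 CPM in controls and 45.8, 45.7 and 36.9 CPM at 7 days. Atg4c was also higher at 2 days (0.52, adjusted p = 0.0099), with 0.071 without control replicate 2. Atg4b, the most active of the 4 enzymes on most Atg8 proteins, held 28.1% of the family's level per kilobase in controls, 24% at 2 days and 13.9% at 7 days. Kri1 shares 19.34% of the exon bases of Atg4d and had 6050 counts over all samples, against 31915 for Atg4d.

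All 5 Atg8 genes (100%) were called higher at 7 days, against 40.5% of all genes. Gabarapl1 had a reversed sign under library size alone, and the log2 changes of the 5 ran from 0.22 to 1.98. Gabarap (chromosome 11, 69991143 to 69994951) read 109, 103 and 96.9 CPM in controls, 117, 114 and 118 CPM after 2 days and 449, 408 and 361 CPM after 7 days. The 2-day samples were above the controls without a call (log2 0.18, adjusted p = 0.17), and at 7 days it was 3.94-fold higher (log2 1.98 ± 0.09 SE, adjusted p = 1.6e-11). Map1lc3a, which encodes LC3A, read 12, 10.7 and 9.09 CPM in controls, 13.2, 10.8 and 10.6 CPM after 2 days and 34.6, 29.4 and 25.0 CPM after 7 days (log2 1.48 ± 0.13 SE, adjusted p = 6e-08). Map1lc3b, the LC3 most used to follow autophagy, read 65.5, 66.4 and 60.6 CPM in controls, 62.5, 62.5 and 67.6 CPM after 2 days and 131, 122 and 108 CPM after 7 days (log2 0.91 ± 0.08 SE, adjusted p = 7.5e-08). Both LC3 genes overlapped between controls and 2 days and stood clear of both at 7 days. Gabarapl2 rose by 0.86 (adjusted p = 4.7e-08).

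Gabarapl1 took a different course. It read 32.6, 34.4 and 36.8 CPM in controls, 28.9, 26.8 and 31.1 CPM after 2 days and 38.3, 40.1 and 42.4 CPM after 7 days, so that the 2-day samples lay below and the 7-day samples above the controls. The log2 change was -0.26 ± 0.09 (SE) at 2 days (adjusted p = 0.039) and 0.22 ± 0.08 (SE) at 7 days (adjusted p = 0.027). The 2-day call was lost under 10 alternatives, including leaving out any control sample, 2-day replicate 1 or 2 or 7-day replicate 2 (adjusted p from 0.054 to 0.12). The 7-day call was lost under 8, including those leaving out control replicate 1 or 2 or 7-day replicate 2 or 3 (adjusted p from 0.055 to 0.23), and under library size alone the value was -0.18. Within the Gabarap family, Gabarap went from 54.6% in controls to 59.0% at 2 days and 75.0% at 7 days, and Gabarapl1 from 16.8% to 13.4% and 6.87%, with no overlap between groups (exact permutation p = 0.1).

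**Figure D4:**
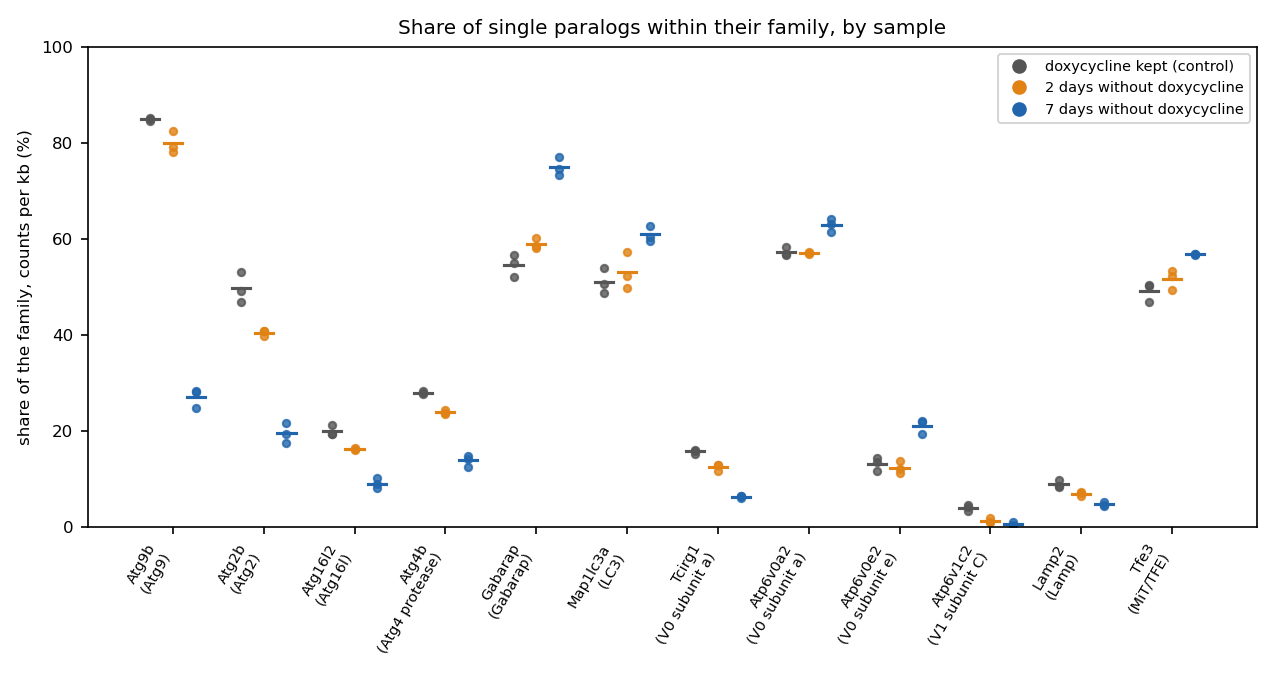
Share of 12 genes in the summed level per kilobase of their family (y axis, percent), 1 point per sample, with a line at the mean. Atg9b falls from 85.0% in controls to 27.2% at 7 days and Atg2b from 49.8% to 19.6%, while Gabarap rises from 54.6% to 75.0%.

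Within V0 subunit a, the share of Tcirg1 went from 15.8% in controls to 12.6% at 2 days and 6.41% at 7 days, although its own level rose. Atp6v0a1 went from 26.7% to 30.1% and 30.7%, and Atp6v0a2 from 57.3% to 57.2% and 62.9%. Atp6v0e2 rose from 13.3% to 21.2% of the subunit e pair between controls and 7 days. Atp6v1c2 went from 4.10% to 1.36% and 0.629% of subunit C. Lamp2 went from 8.97% to 7.03% and 4.82% of the Lamp pair, and Tfe3 from 49.2% to 51.8% and 56.8% of the MiT/TFE genes. In each of these the 7-day samples lay outside the control range (exact permutation p = 0.1).

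Sqstm1 (chromosome 11, 50199366 to 50210827) encodes p62, the receptor that ties ubiquitin-marked cargo to Atg8 proteins and is itself degraded by autophagy. It read 165, 158 and 134 CPM in controls, 175, 166 and 156 CPM after 2 days and 816, 747 and 559 CPM after 7 days. Control and 2-day samples overlapped (log2 0.12, adjusted p = 0.52), and the 7-day samples lay far above both, at 4.65-fold (log2 2.22 ± 0.13 SE, adjusted p = 2.5e-10). Replicate 3 was lowest in each group. Mrnip shares 17.28% of the exon bases of Sqstm1 and had 396 counts over all samples, against 83107 for Sqstm1. RNA levels do not show how much p62 protein was present or how fast it was degraded.

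Other selective autophagy receptors gave 11 higher and 2 lower of 15 tested at 7 days (9 and 4 with library size alone), with a median of 1.41. That is 73.3% higher, against 40.5% of all genes, and at 2 days 4 (26.7%) were higher, against 13.1%. Calcoco1, a receptor for the endoplasmic reticulum, rose by 2.73 at 7 days and by 0.64 at 2 days. Bnip3, a receptor for mitochondria, rose by 2.48 and Optn by 1.72, and both were also higher at 2 days (0.41 and 0.34). The 2-day adjusted p of Bnip3 was 0.053 without control replicate 1. Phb2, a protein of the inner mitochondrial membrane, was lower at 7 days (-0.94).

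The last step, fusion of the autophagosome with the lysosome, was represented by 16 tested genes, of which 11 were higher and 2 lower at 7 days (median 0.54), or 7 and 5 with library size alone. That is 68.8% higher, against 40.5% of all genes. Vps18, of the HOPS tethering complex, rose by 1.44, the SNARE Vamp8 by 1.26 and the tether Epg5 by 1.08. Vps16, also of HOPS, was lower by -0.46 and the autophagosomal SNARE Stx17 by -0.43.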

How the data were processed

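RNA from 9 organoid samples, 3 per group by the sample titles, was sequenced from poly(A) libraries (NEBNext Ultra II, per the labels' protocols), whose reads carry no strand information. The authors deposited 1 table of raw read counts for each gene and sample. Per the submitters' processing notes the tools were STAR 2.7.0e, featureCounts and DESeq2, with builds mm10 and GRCm38. Strand setting, annotation release and any gene filter: not given in the sources used here. Of 21253 Ensembl IDs, 21236 were found in GENCODE M21 (GRCm38), the source of symbols, coordinates and exon lengths.

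Counts were filtered with filterByExpr, scaled with TMM (factors 0.785 to 1.12) and fitted in edgeR 4.0.16 (R 4.3.3) with glmQLFit and glmQLFTest over all 9 samples and the group alone. The test was two-sided and adjusted over 12535 genes. Each SE is the size of the log2 change divided by the root of its F value. A group at 0 was set at 3 counts over the group. Shares within families were tested by exact permutation. The code was tested on simulated data. No pair of replicates was a repeated library (chi-square per degree of freedom of 4.24 or more).

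The members and lists were chosen with earlier results of these data known. Named with values were the core genes, family paralogs and, per role and comparison, up to 4 called members in each direction with the largest change and at least 5 CPM in a group (up to 3 for other lists). The other genes named, among them rare cathepsins, were chosen after their values were seen. Alternatives were DESeq2 1.42.0, limma-voom (limma 3.58.1), 3 other scalings, 2 other filters, only the groups compared, the replicate block, each sample left out and, added after seeing the data, removal of a GC trend.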

Additional observations from a re-analysis of the deposited data

Results flagged for a closer look

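Gabarapl1 and Lamp2 were lower at 2 days and higher at 7 days than the same controls, and the difference between the times was itself tested. Gabarapl1 rose by 0.48 on the log2 scale from 2 to 7 days (edgeR, adjusted p = 0.00011), with all 3 later samples above all 3 earlier ones. Lamp2 rose by 0.67 (adjusted p = 1.3e-05), again without overlap. With library size alone the adjusted p of these steps was 0.57 and 0.055. The model 1700101I11Rik, on the opposite strand and absent from the deposited counts, shares 28.32% of the exon bases of Gabarapl1.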

How the results depend on the processing

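The counts of genes called at 7 days against controls stayed within 1.5 times of 46 higher and 9 lower under every alternative. Leaving out each sample in turn gave 43 to 46 higher and 8 to 9 lower, 40 to 42 higher and 5 to 8 lower between 7 and 2 days, and 2 to 8 higher and 4 to 8 lower at 2 days. With the GC trend removed, chosen after seeing the data, 13 genes were higher at 2 days. Between 7 and 2 days, 4 were lower with the DESeq2 Wald test or DESeq2 size factors and 15 with library size alone. Library size alone also reversed the 7-day values of Atp6v1h (-0.18), Atp6v1g1 (-0.09), Atg7 (-0.15), Gabarapl1 (-0.18), Atg5 (-0.10), Tfe3 (-0.07) and Lamp2 (-0.03), and the values between 7 and 2 days of Atg7 (-0.0013) and Tfe3 (-0.13). Under that scaling the median of all genes was -0.43 and -0.44, and relative to it these 9 values ran from 0.25 to 0.44. The cause of these reversals and of the other changes was not tested. Of the calls, 6 of 15 at 2 days, 40 of 55 at 7 days and 34 of 48 between the times held under every alternative that tested the gene.

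With the replicate number as a replicate block, 12 genes were higher and 9 lower at 2 days, 46 and 9 at 7 days, and 41 and 9 between the times. Deviations of samples with the same number correlated at -0.13 to 0.48, not all over 0.1, and those with different numbers at -0.437 to 0.169. The highest values, 0.48 between controls and 7 days for number 3 and 0.332 for number 1, were of the same number. Not every sample correlated best with its own number, and whether the samples share more than a number was not tested. Depth limits Mitf, Ctsk and Ctsw, at 9 counts or fewer in every group, and the control levels of Ctsf and Ctss, at 0 and 3 counts.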
